A study of Mus musculus with 12 samples.

Results

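RNA levels of 41 genes for DNA replication and S phase were followed across 4 sorted populations of splenic CD4 T cells of the lupus-prone mouse strain MRL/Faslpr. The genes were taken from a list of 42 symbols for the replication machinery, the supply of nucleotides and histones, and the cyclin E and E2F regulators of S phase entry. The platform annotation gave 91 probe sets to 41 of them as single gene, and none to Chaf1a, which is not analysed here. The whole table covered 18193 genes.

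Each population was measured on 3 Affymetrix arrays, 12 in all. All cells came from female MRL/Faslpr mice, in which Fas, a death receptor gene, is mutant, and passed a gate on TCRb and CD4 without B220. The first 3 populations were CD44+ cells of mice aged 16 to 24 weeks. They were CD62Llo PSGL1lo, CD62Llo PSGL1hi and CD62Lhi PSGL1hi cells, where CD62L is the lymph node homing selectin and PSGL1 a selectin ligand. Naive cells, CD62Lhi and CD44lo, came from mice aged 6 to 8 weeks, so population and age cannot be told apart in a comparison with naive cells. The design text describes 3 independent sorts, whereas the sample titles speak of technical replicates. The p-values therefore measure only the spread between these samples, which may be technical. The labels of the CD62Llo PSGL1hi arrays also name a different gate in 1 field, and the titles and the design text were followed.

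A cell copies its genome once per division. In G1, the origin recognition complex, Cdc6 and Cdt1 load the MCM helicase onto origins. At the start of S phase, Cdc45 and the GINS proteins join it to form the active helicase. Polymerase alpha with primase then starts each strand, and polymerases delta and epsilon extend it on the PCNA clamp. E2F transcription factors switch many of these genes on late in G1, and mitosis genes follow later in the cycle. Naive T cells rest outside the cycle until an antigen activates them.

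Promoters are shown first because E2F factors are known to act on genes of this kind. RefSeq promoters on GRCm38.p6, which span 250 bases before to 50 after a transcript start, were present for 35 of the 41 genes. No promoter was matched for Ccne2, Gins1, Gins2, Mcm4, Pole and Prim2. An E2F motif, read on either strand as TTCGCGC or TTGGCGC, and also as TTCCCGC or TTGCCGC, lay in 24 of 41 promoters of these genes (58.5%). It lay in 9 of 44 promoters of mitosis genes (20.5%) and in 3145 of all 32851 promoters (9.57%). The CCAAT motif was in 56.1% of promoters of the replication genes, 77.3% of those of mitosis genes and 37.4% of all. The motif TTTGAA, the core of the cell cycle homology element, was in 9.76%, 77.3% and 17.9%. A match is a description of letters and not of bound protein.

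The 5 genes printed hold an E2F motif and have the largest differences between CD62Llo PSGL1hi and CD62Lhi PSGL1hi cells among genes with such a promoter. Cdc6 loads the helicase (chr11:98907901-98908200, plus strand) and Rrm2 is a subunit of ribonucleotide reductase (chr12:24708004-24708303, plus strand). Uhrf1 guides maintenance of DNA methylation at forks (chr17:56303087-56303386, plus strand) and E2f2 is an E2F factor (chr4:136172024-136172323, plus strand). Pole2 is the second subunit of polymerase epsilon (chr12:69228141-69228440, minus strand). Capitals mark the E2F motif, as written or as its reverse complement, and each sequence runs 5′ to 3′ along the gene's strand. In E2f2 and Pole2 it lies after the start, at bases 41 to 47 and 11 to 17. The Cdc6 and Pole2 windows belong to transcript starts inside the annotated span of the gene.
Cdc6: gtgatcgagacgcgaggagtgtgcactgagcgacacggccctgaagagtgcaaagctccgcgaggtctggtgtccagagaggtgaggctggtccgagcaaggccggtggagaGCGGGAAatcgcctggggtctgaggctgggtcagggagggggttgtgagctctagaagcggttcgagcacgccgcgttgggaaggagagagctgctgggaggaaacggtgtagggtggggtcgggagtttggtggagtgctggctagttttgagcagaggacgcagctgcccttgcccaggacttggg
Rrm2: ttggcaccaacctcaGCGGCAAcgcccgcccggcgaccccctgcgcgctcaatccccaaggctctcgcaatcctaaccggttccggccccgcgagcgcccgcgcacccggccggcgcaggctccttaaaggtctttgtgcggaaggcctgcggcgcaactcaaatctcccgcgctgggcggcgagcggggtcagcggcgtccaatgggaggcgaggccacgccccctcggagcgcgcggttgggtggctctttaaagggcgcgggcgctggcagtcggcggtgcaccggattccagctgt
Uhrf1: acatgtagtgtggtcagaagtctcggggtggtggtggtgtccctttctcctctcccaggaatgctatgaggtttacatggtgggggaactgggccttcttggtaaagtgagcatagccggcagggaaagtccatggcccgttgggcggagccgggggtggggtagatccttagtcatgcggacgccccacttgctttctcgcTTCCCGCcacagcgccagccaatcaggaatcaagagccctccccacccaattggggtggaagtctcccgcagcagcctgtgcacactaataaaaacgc
E2f2: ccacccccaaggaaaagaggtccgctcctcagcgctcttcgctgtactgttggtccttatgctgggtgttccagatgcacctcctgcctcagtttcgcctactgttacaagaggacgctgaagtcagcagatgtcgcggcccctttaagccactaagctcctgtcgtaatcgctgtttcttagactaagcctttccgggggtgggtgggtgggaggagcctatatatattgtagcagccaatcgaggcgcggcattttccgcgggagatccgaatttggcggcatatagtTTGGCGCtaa
Pole2: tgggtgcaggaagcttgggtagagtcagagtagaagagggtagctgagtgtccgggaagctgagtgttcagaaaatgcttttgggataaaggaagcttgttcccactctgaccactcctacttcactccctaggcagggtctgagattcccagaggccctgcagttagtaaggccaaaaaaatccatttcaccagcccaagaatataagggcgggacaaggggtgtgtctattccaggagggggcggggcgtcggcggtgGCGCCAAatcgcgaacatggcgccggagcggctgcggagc

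The 21 genes with a motif had a median log2 difference of -0.46 between CD62Llo PSGL1hi and CD62Lhi PSGL1hi cells, and 9 were lower. The 14 without a motif had a median of -0.31, and 2 were lower. Of all genes, 1.40% were lower there. Between CD62Lhi PSGL1hi and naive cells the medians were 0.54 and 0.13, with 15 and 4 genes higher, beside 10.4% of all genes. These values describe the matched genes, and the difference between both sets was not tested.

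Values are linear ratios of a probe set to its own median over the 12 arrays, so a ratio compares arrays for 1 probe set and gives no absolute level. Differences are on the log2 scale ± SE, and calls were made where p, adjusted by Benjamini-Hochberg over all 18193 genes of a limma fit, was under 0.05. Array medians over all genes ran from 0.951 to 1.024. CD62Llo PSGL1lo replicate 2 stood apart. It was the lowest of its population for 36 of 41 replication genes, and their median ratio there was 0.774, against 0.987 and 0.994 on replicates 1 and 3. Over all genes its median was 0.951, against 1.017 and 1.001. CD62Lhi PSGL1hi replicate 3 was the highest of its population for 30 of the 41 genes, and naive replicate 1 for 29. Since these are bulk samples, fewer cells in S phase and less RNA per cell cannot be told apart.

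CD62Lhi PSGL1hi cells held the highest mean of 34 of the 41 genes, as against 19.0% of all genes, and the lowest mean of 0 (22.3%). Among the others, Rpa1 was highest in CD62Llo PSGL1lo cells (22.1% of all genes were), Cdt1 in CD62Llo PSGL1hi cells (15.4%), and 5 genes, Mcm7, Mcm10, Orc6, Pola2 and Pole2, in naive cells (43.5%). The lowest mean lay in CD62Llo PSGL1lo cells for 16 genes (28.9% of all genes), in CD62Llo PSGL1hi cells for 11 (26.1%) and in naive cells for 14 (22.7%). Means were lowest in CD62Llo PSGL1lo, higher in CD62Llo PSGL1hi and highest in CD62Lhi PSGL1hi cells for 23 genes (20.7% of all genes), and 7 of these had naive cells below all 3 (3.92%). An F test among the 4 populations called 30 of the 41 genes, against 28.3% of all genes. It did not call Mcm2, Mcm3, Mcm10, Pcna, Rfc5, Rpa1, Pold1, Fen1, Tyms, Dut and E2f1.

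**Figure D1:**
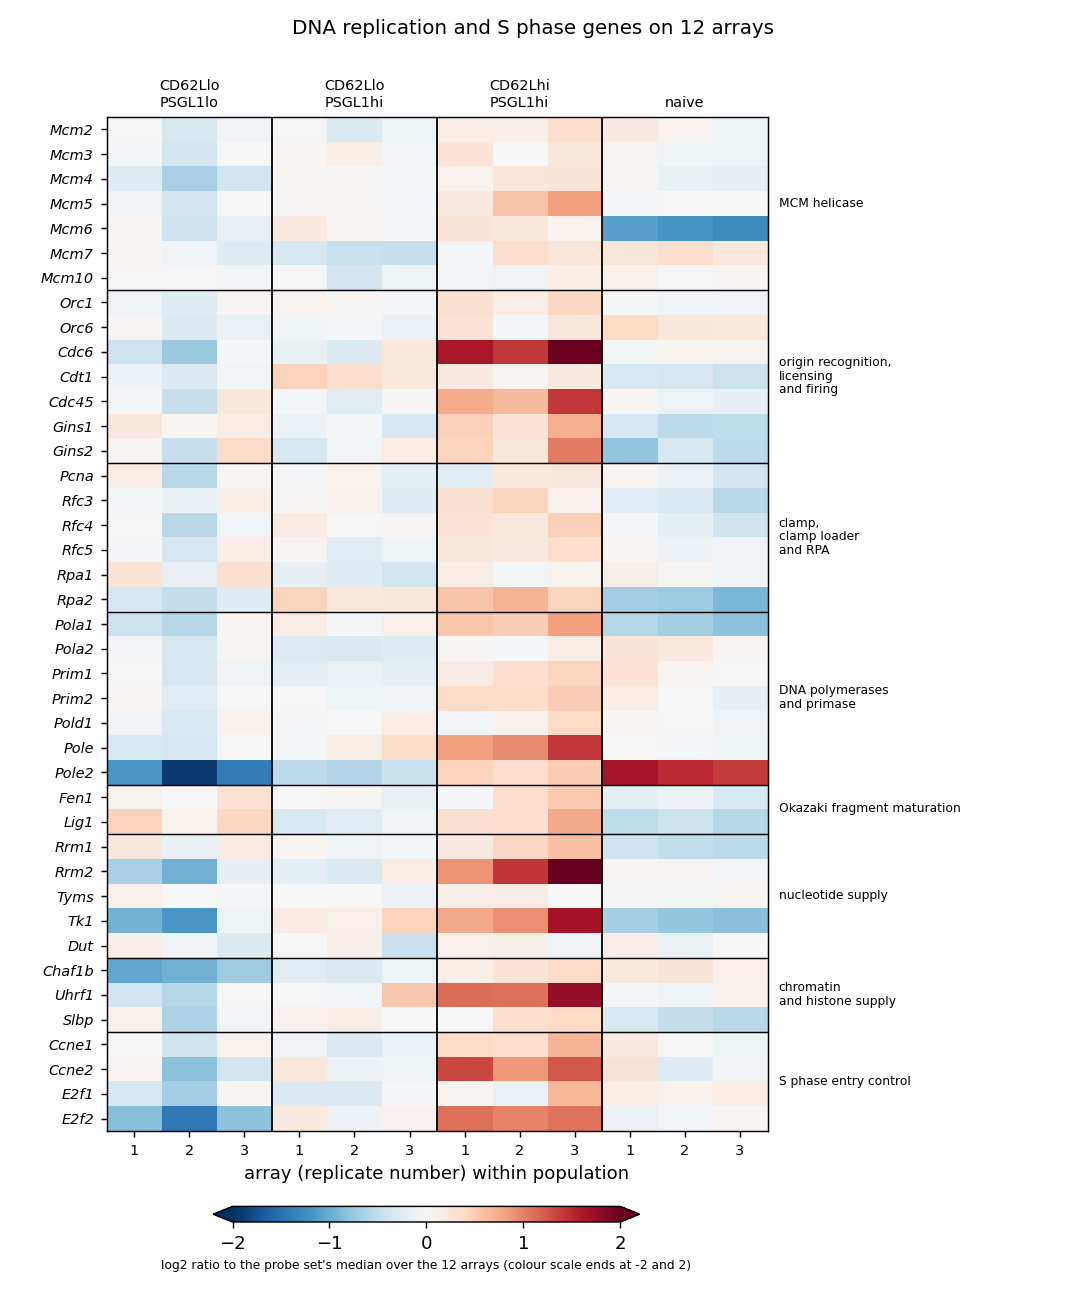
Log2 ratio of each of the 41 genes (rows, grouped by role) on each of the 12 arrays (columns, 3 per population), with red above and blue below the median of the probe set. Cdc6, Rrm2, Uhrf1, Ccne2, Pole and E2f2 are high on all 3 CD62Lhi PSGL1hi arrays, and Pole2 is highest on the naive arrays.

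Low CD62L went with lower replication gene RNA among PSGL1hi cells. In CD62Llo PSGL1hi relative to CD62Lhi PSGL1hi cells, 15 of 41 genes were lower and 0 higher, while 1.40% of all genes were lower and 0.704% higher. The median difference was -0.39, against -0.01 over all genes. The 3 arrays of CD62Llo PSGL1hi cells lay below all 3 of CD62Lhi PSGL1hi cells for 27 genes, as against 8.49% of all genes, and above them for 1, Cdt1, as against 1274 of 18193 genes. Without moderated variances only Cdc6 and E2f2 of the 15 passed, and without CD62Lhi PSGL1hi replicate 3 there were 10.

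In CD62Llo PSGL1lo relative to CD62Lhi PSGL1hi cells, 20 of 41 genes were lower and 0 higher, with a median of -0.44 against -0.01 over all genes. Of all genes, 8.10% were lower and 6.70% higher. Both comparisons share the CD62Lhi PSGL1hi arrays. The arrays lay entirely below those of CD62Lhi PSGL1hi cells for 25 genes (12.7% of all genes) and entirely above for 0 (10.5%). Without CD62Llo PSGL1lo replicate 2 the count was 17, with a median of -0.32.

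Between CD62Llo cells, the PSGL1lo population differed less evenly from the PSGL1hi population. Lower were 7 genes, E2f2, Pole2, Tk1, Chaf1b, Rpa2, Cdt1 and Mcm4, and higher were Lig1 and Rpa1. Of all genes, 6.17% were lower and 4.55% higher, and the median was -0.13 for the 41 genes and 0.01 for all genes. Without CD62Llo PSGL1lo replicate 2 the median turned to 0.02, and 5 genes were lower and 2 higher. The arrays lay entirely below those of CD62Llo PSGL1hi cells for 7 genes (12.1% of all genes) and entirely above for 4 (10.7%). With the replicate number as a block 12 were lower and 2 higher, and after quantile normalization 6 were lower and 4 higher.

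**Figure D2:**
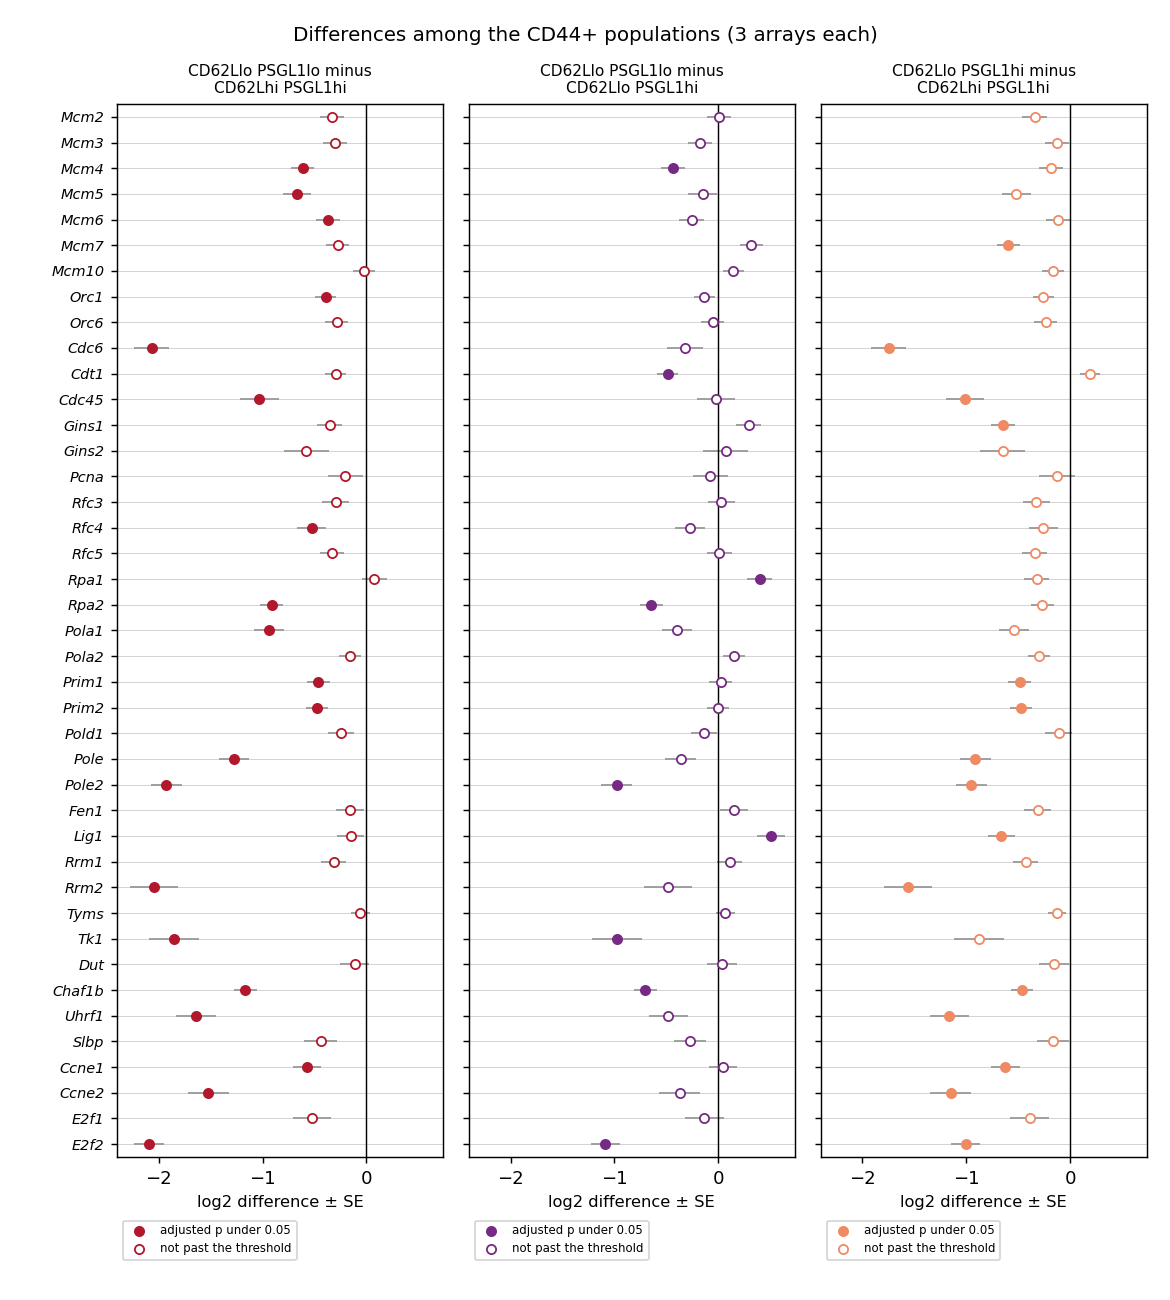
Log2 difference ± SE for the 41 genes in the 3 comparisons among CD44+ populations (3 arrays each); filled points passed an adjusted p of 0.05 and open points did not. Most points of the comparisons with CD62Lhi PSGL1hi cells lie left of 0, down to -2.09 for E2f2.

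Relative to naive cells, CD62Lhi PSGL1hi cells had 24 of 41 genes higher and 1, Pole2, lower. Of all genes, 10.4% were higher and 10.3% lower, and the median difference was 0.47 for the 41 genes and -0.05 for all genes. Its arrays lay entirely above the naive arrays for 26 genes (15.4% of all genes) and entirely below for 1 (20.2%). Without CD62Lhi PSGL1hi replicate 3, 19 were higher. CD62Llo PSGL1hi cells had 7 higher and 5 lower (10.7% and 10.1% of all genes), with a median of 0.04 against -0.07 over all genes. Its arrays were entirely above for 11 genes (16.5%) and entirely below for 8 (24.0%). CD62Llo PSGL1lo cells had 5 higher and 6 lower (10.9% and 12.3% of all genes), with a median of -0.06, as over all genes. Its arrays were entirely above for 9 genes (13.8%) and entirely below for 12 (22.4%). Without CD62Llo PSGL1lo replicate 2 they had 8 higher and 4 lower, after quantile normalization 4 and 3, and with arrays centred on their median 7 and 5. With the replicate block, which is no pairing with naive cells, they had 8 and 11. The 3 comparisons share the naive arrays.

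**Figure D3:**
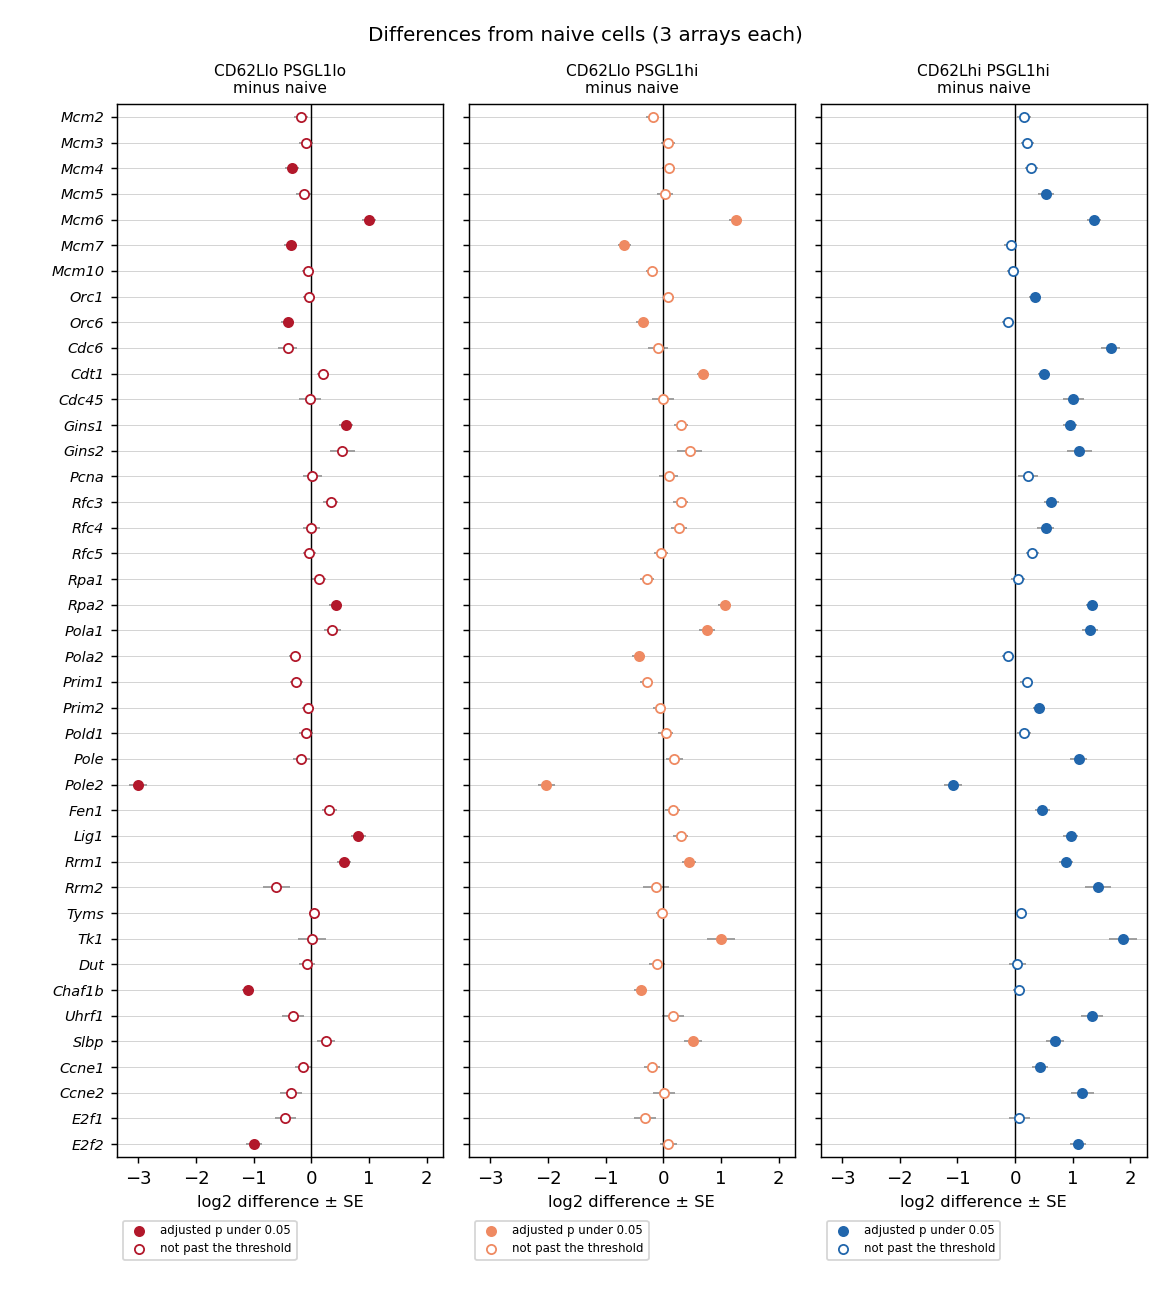
Log2 difference ± SE from naive cells for the 41 genes in each CD44+ population (3 arrays each); filled points passed an adjusted p of 0.05. Most points of CD62Lhi PSGL1hi cells lie right of 0, Mcm6 is right of 0 in all 3 panels, and Pole2 is left of 0 in all 3, at -3.01 in CD62Llo PSGL1lo cells.

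Origin licensing and firing genes differed most at Cdc6 (chr11:98907709-98923942, GRCm38.p6). Its ratio was 0.754, 0.599 and 0.971 in CD62Llo PSGL1lo cells and 0.900, 0.824 and 1.15 in CD62Llo PSGL1hi cells. It was 3.11, 2.67 and 3.90 in CD62Lhi PSGL1hi cells, against 0.974, 1.03 and 1.03 in naive cells. Every CD62Lhi PSGL1hi array lay above every array of the other populations. Cdc6 was 3.36-fold lower in CD62Llo PSGL1hi than among CD62Lhi PSGL1hi cells (-1.75 ± 0.17, adjusted p = 4.24e-05) and 4.19-fold lower in CD62Llo PSGL1lo cells (-2.07 ± 0.17, adjusted p = 2.9e-07). It was 3.15-fold higher in CD62Lhi PSGL1hi than in naive cells. The CD62Llo PSGL1lo and CD62Llo PSGL1hi populations overlapped (-0.32 ± 0.17, adjusted p = 0.339, or 0.0478 with the replicate block).

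Cdt1 (chr8:122568015-122573130), the partner of Cdc6 in loading the helicase, had another pattern. Its ratios were 0.925, 0.817 and 0.961 in CD62Llo PSGL1lo cells and 1.38, 1.25 and 1.16 in CD62Llo PSGL1hi cells. They were 1.14, 1.04 and 1.14 in CD62Lhi PSGL1hi cells and 0.808, 0.793 and 0.741 in naive cells. Cdt1 was the only gene of the 41 with a positive difference between CD62Llo PSGL1hi and CD62Lhi PSGL1hi cells, and it did not pass (0.19 ± 0.10, adjusted p = 0.57). It was lower in CD62Llo PSGL1lo than among CD62Llo PSGL1hi cells (-0.49 ± 0.10, adjusted p = 0.00367), and higher in both PSGL1hi populations than in naive cells, by 0.69 ± 0.10 in CD62Llo and 0.50 ± 0.10 in CD62Lhi cells.

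The helicase activators Cdc45, Gins1 and Gins2 were all higher in CD62Lhi PSGL1hi than in naive cells, by 1.01 ± 0.19, 0.95 ± 0.12 and 1.12 ± 0.22. Cdc45 was 0.966, 0.727 and 1.17 in CD62Llo PSGL1lo cells, 0.980, 0.856 and 1.02 in CD62Llo PSGL1hi cells, 1.67, 1.57 and 2.68 in CD62Lhi PSGL1hi cells, and 1.03, 0.931 and 0.894 in naive cells. It was at -1.03 ± 0.19 in CD62Llo PSGL1lo cells and -1.01 ± 0.19 in CD62Llo PSGL1hi cells relative to CD62Lhi PSGL1hi cells, and both calls passed. Gins1 was lower in CD62Llo PSGL1hi than among CD62Lhi PSGL1hi cells (-0.65 ± 0.12, adjusted p = 0.00691) but higher in CD62Llo PSGL1lo than in naive cells (0.60 ± 0.12, adjusted p = 0.00124). Gins2 differed as much between CD62Llo PSGL1hi and CD62Lhi PSGL1hi cells, with a larger error (-0.65 ± 0.22, adjusted p = 0.199, or 0.0141 with the replicate block). In CD62Llo PSGL1lo relative to CD62Lhi PSGL1hi cells it was at -0.58 ± 0.22 (adjusted p = 0.0986, or 0.00741 with that block).

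The origin recognition subunits moved little. Orc1 was lower in CD62Llo PSGL1lo than among CD62Lhi PSGL1hi cells (-0.39 ± 0.10, adjusted p = 0.0145). That call held in 16 of 20 alternatives, with an adjusted p of 0.0544 without CD62Llo PSGL1lo replicate 2 and up to 0.212. Orc1 was 0.35 ± 0.10 higher in CD62Lhi PSGL1hi than in naive cells. This second call held in 14 of 20 alternatives, with an adjusted p of 0.0894 without CD62Lhi PSGL1hi replicate 3 and up to 0.744. Orc6 was 1.02, 0.824 and 0.908 in CD62Llo PSGL1lo cells, 0.939, 0.979 and 0.925 in CD62Llo PSGL1hi cells, 1.21, 0.974 and 1.17 in CD62Lhi PSGL1hi cells and 1.32, 1.17 and 1.16 in naive cells. It was lower than there in CD62Llo PSGL1lo cells (-0.41 ± 0.11, adjusted p = 0.0127, or 0.0516 without replicate 2) and in CD62Llo PSGL1hi cells (-0.36 ± 0.11, adjusted p = 0.032). The second of these calls held in 12 of 20 alternatives, and its adjusted p reached 0.125 without naive replicate 1.

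Of the 7 MCM genes, which encode the replicative helicase and, with Mcm10, a fork factor, 1 was lower in CD62Llo PSGL1hi and 3 in CD62Llo PSGL1lo cells relative to CD62Lhi PSGL1hi cells, beside 1.40% and 8.10% of all genes. The widest gap was at Mcm6 (chr1:128331575-128359705) and set naive cells apart. Its ratio was 1.02, 0.739 and 0.899 in CD62Llo PSGL1lo cells, 1.14, 1.02 and 0.983 in CD62Llo PSGL1hi cells and 1.19, 1.17 and 1.05 in CD62Lhi PSGL1hi cells, against 0.464, 0.443 and 0.412 in naive cells. No array of a CD44+ population reached as low as the naive arrays. A second probe set had the same gap, with 0.508, 0.409 and 0.411 in naive cells. The remaining probe set did not, at 0.838, 1.007 and 1.037 in naive cells. It read 1.003, 0.804 and 0.921 in CD62Llo PSGL1lo cells and 1.007, 0.918 and 0.997 in CD62Llo PSGL1hi cells. In CD62Lhi PSGL1hi cells it read 1.298, 1.018 and 0.987, so all populations overlapped with naive cells there. On the probe set that stands for the gene, Mcm6 rose above naive cells by 1.00 ± 0.12, 1.25 ± 0.12 and 1.37 ± 0.12 in CD62Llo PSGL1lo, CD62Llo PSGL1hi and CD62Lhi PSGL1hi cells (adjusted p at most 7.16e-06). Among CD44+ populations it was at -0.37 ± 0.12 in CD62Llo PSGL1lo relative to CD62Lhi PSGL1hi cells (adjusted p = 0.0461, or 0.177 without CD62Llo PSGL1lo replicate 2), a call held in 6 of 20 alternatives.

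Mcm7 (chr5:138164583-138172111) ran the other way against naive cells. Its ratios were 1.02, 0.957 and 0.842 in CD62Llo PSGL1lo cells, 0.794, 0.735 and 0.730 in CD62Llo PSGL1hi cells, 0.975, 1.28 and 1.18 in CD62Lhi PSGL1hi cells and 1.19, 1.25 and 1.16 in naive cells. On this probe set and a second, the CD62Llo PSGL1hi arrays were the lowest of all 12. On the others, CD62Llo PSGL1lo arrays reached as low. They read 0.948, 0.820 and 0.884 against 0.860, 0.836 and 0.834 in CD62Llo PSGL1hi cells, or 0.775, 0.827 and 0.930 against 0.830, 0.850 and 0.844. On the probe set that stands for it, Mcm7 was lower in CD62Llo PSGL1hi than among CD62Lhi PSGL1hi cells (-0.60 ± 0.11, adjusted p = 0.00778) and than in naive cells (-0.67 ± 0.11, adjusted p = 0.000302). In CD62Llo PSGL1lo cells it was at -0.35 ± 0.11 relative to naive cells (adjusted p = 0.0307, or 0.05 and above in 6 of 20 alternatives).

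Mcm5 and Mcm4 were lower in CD62Llo PSGL1lo than among CD62Lhi PSGL1hi cells, by -0.67 ± 0.14 and -0.61 ± 0.11 (adjusted p = 0.00288 and 0.00112). Mcm5 was 1.14, 1.49 and 1.76 on the CD62Lhi PSGL1hi arrays, against 0.989, 0.990 and 0.990 on the naive arrays. That difference of 0.54 ± 0.14 passed (adjusted p = 0.00968) and did not without CD62Lhi PSGL1hi replicate 3 (adjusted p = 0.0522). Mcm4 was lower in CD62Llo PSGL1lo than among CD62Llo PSGL1hi cells (-0.43 ± 0.11, adjusted p = 0.0205, or 0.0779 without CD62Llo PSGL1lo replicate 2). It was also lower there than in naive cells (-0.34 ± 0.11, adjusted p = 0.0437, or 0.174 without that array), which held in 5 of 20 alternatives. Mcm2 and Mcm3 had ratios from 0.774 to 1.26 over all 12 arrays and were not called. For Mcm2 this depended on the fit in CD62Llo PSGL1lo relative to CD62Lhi PSGL1hi cells (-0.33 ± 0.12, adjusted p = 0.0747, or 0.0406 with the replicate block and 0.0338 with the mean of its probe sets).

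Mcm10 had no call on the probe set that stands for it, where the difference between CD62Lhi PSGL1hi and naive cells was -0.03 ± 0.11. Its ratios there were 1.00, 0.996 and 0.987 in CD62Llo PSGL1lo cells, 1.01, 0.776 and 0.929 in CD62Llo PSGL1hi cells, 0.981, 0.955 and 1.10 in CD62Lhi PSGL1hi cells and 1.06, 1.01 and 1.02 in naive cells, so all populations overlapped. A second probe set read 0.705, 0.829 and 0.951 in CD62Llo PSGL1lo cells, 0.896, 0.795 and 1.12 in CD62Llo PSGL1hi cells, 1.94, 2.12 and 2.93 in CD62Lhi PSGL1hi cells and 1.13, 0.897 and 1.05 in naive cells. All 3 CD62Lhi PSGL1hi arrays were above all others there. On it, in a fit over all 45037 probe sets, Mcm10 was 1.17 ± 0.17 higher in CD62Lhi PSGL1hi than in naive cells (adjusted p = 0.000206). It was at -1.31 ± 0.17 in CD62Llo PSGL1hi relative to CD62Lhi PSGL1hi cells (adjusted p = 0.00123). The remaining probe set was at -0.19 ± 0.13 for CD62Lhi PSGL1hi relative to naive cells, so the probe sets of Mcm10 disagree.

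Polymerase epsilon subunits gave the largest and the most divergent values among the polymerases. Pole (chr5:110286319-110337468), the catalytic subunit for the leading strand, was 0.808, 0.794 and 1.00 in CD62Llo PSGL1lo cells and 0.979, 1.09 and 1.28 in CD62Llo PSGL1hi cells. It was 1.76, 1.93 and 2.67 in CD62Lhi PSGL1hi cells and 1.00, 0.978 and 0.941 in naive cells. The CD62Lhi PSGL1hi arrays did not overlap with any other population. Pole was 1.10 ± 0.15 higher there than in naive cells (adjusted p = 3.76e-05). It was at -0.91 ± 0.15 in CD62Llo PSGL1hi and -1.27 ± 0.15 in CD62Llo PSGL1lo cells relative to CD62Lhi PSGL1hi cells (adjusted p = 0.00238 and 1.13e-05). Between the CD62Llo populations it was at -0.36 ± 0.15 (adjusted p = 0.163, or 0.03 with the replicate block).

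Pole2 (chr12:69201773-69228205) was highest in naive cells. Its ratio was 0.448, 0.264 and 0.380 in CD62Llo PSGL1lo cells and 0.697, 0.669 and 0.737 in CD62Llo PSGL1hi cells. It was 1.38, 1.26 and 1.42 in CD62Lhi PSGL1hi cells, against 3.13, 2.82 and 2.65 in naive cells. The 4 populations formed 4 separate steps with no overlap. Set against naive cells, Pole2 was 8.04-fold lower in CD62Llo PSGL1lo cells (-3.01 ± 0.15, adjusted p = 2.87e-10), 4.08-fold lower in CD62Llo PSGL1hi cells (-2.03 ± 0.15) and 2.11-fold lower in CD62Lhi PSGL1hi cells (-1.08 ± 0.15, adjusted p = 5.16e-05). In CD62Llo PSGL1lo relative to CD62Llo PSGL1hi cells it was at -0.98 ± 0.15 (adjusted p = 0.000268), which quantile normalization reduced to -0.09 (adjusted p = 0.862). In CD62Llo PSGL1hi relative to CD62Lhi PSGL1hi cells it was at -0.95 ± 0.15 (adjusted p = 0.00181), or -1.83 after quantile normalization. The other Pole2 probe set was also lower than in naive cells in all 3 CD44+ populations, by -0.80, -0.56 and -0.48 in CD62Llo PSGL1lo, CD62Llo PSGL1hi and CD62Lhi PSGL1hi cells.

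Of the polymerase alpha and primase genes, Pola1, the catalytic subunit, moved most. Its ratio was 0.741, 0.674 and 1.02 in CD62Llo PSGL1lo cells, 1.11, 0.977 and 1.07 in CD62Llo PSGL1hi cells, 1.46, 1.40 and 1.76 in CD62Lhi PSGL1hi cells and 0.670, 0.626 and 0.568 in naive cells. The CD62Lhi PSGL1hi arrays were the highest and the naive arrays the lowest. Pola1 was 1.31 ± 0.14 higher in CD62Lhi PSGL1hi and 0.77 ± 0.14 higher in CD62Llo PSGL1hi than in naive cells, and at -0.94 ± 0.14 in CD62Llo PSGL1lo relative to CD62Lhi PSGL1hi cells (adjusted p = 0.000168). Pola1 was not called between CD62Llo PSGL1hi and CD62Lhi PSGL1hi cells (-0.54 ± 0.14, adjusted p = 0.069) or between the CD62Llo populations (-0.40 ± 0.14, adjusted p = 0.0972). With the replicate block it was called in both (adjusted p = 0.0155 and 0.0323). Counting the block, 5 and 2 of 20 alternatives called it. Another Pola1 probe set differed by at most 0.26 in size and passed in none of these comparisons. The primase subunits Prim1 and Prim2 were lower in CD62Llo PSGL1hi than among CD62Lhi PSGL1hi cells, by -0.49 ± 0.11 and -0.47 ± 0.11 (adjusted p = 0.0334 and 0.0257). Each of those calls held in 12 of 20 alternatives. Pola2 was lower in CD62Llo PSGL1hi than in naive cells (-0.43 ± 0.11, adjusted p = 0.00802), and Pold1, the polymerase delta catalytic subunit, passed in no comparison. Pold1 was 0.948, 0.806 and 1.06 in CD62Llo PSGL1lo cells, 0.973, 0.993 and 1.11 in CD62Llo PSGL1hi cells, 0.960, 1.07 and 1.32 in CD62Lhi PSGL1hi cells and 1.02, 1.01 and 0.954 in naive cells, and its differences were at most 0.25 in size.

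Clamp, clamp loader and RPA genes changed mainly at Rpa2 (chr4:132768360-132778746), a subunit of the protein that coats single-stranded DNA. Its ratio was 0.795, 0.717 and 0.846 in CD62Llo PSGL1lo cells, 1.37, 1.15 and 1.16 in CD62Llo PSGL1hi cells, 1.48, 1.60 and 1.36 in CD62Lhi PSGL1hi cells and 0.627, 0.602 and 0.530 in naive cells. CD62Llo PSGL1lo arrays lay between the naive and the PSGL1hi arrays. Rpa2 rose above naive cells by 0.42 ± 0.11, 1.07 ± 0.11 and 1.34 ± 0.11 in CD62Llo PSGL1lo, CD62Llo PSGL1hi and CD62Lhi PSGL1hi cells. It was at -0.64 ± 0.11 in CD62Llo PSGL1lo relative to CD62Llo PSGL1hi cells (adjusted p = 0.0008), and its second probe set was at -0.57 (adjusted p = 0.0185).

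Rpa1, the large RPA subunit, went the other way in that comparison. It was 1.22, 0.898 and 1.24 in CD62Llo PSGL1lo cells, against 0.893, 0.850 and 0.774 in CD62Llo PSGL1hi cells. The populations were separate, but the call (0.40 ± 0.12, adjusted p = 0.0468) held in 5 of 20 alternatives. The clamp loader subunits Rfc3 and Rfc4 were 0.63 ± 0.13 and 0.53 ± 0.14 higher in CD62Lhi PSGL1hi than in naive cells. Rfc4 passed there with an adjusted p of 0.0133, or 0.0576 without CD62Lhi PSGL1hi replicate 3. It was also lower in CD62Llo PSGL1lo than among CD62Lhi PSGL1hi cells (-0.53 ± 0.14, adjusted p = 0.018, or 0.0721 without CD62Llo PSGL1lo replicate 2). Rfc5 was called in no comparison of the main fit. In CD62Llo PSGL1lo relative to CD62Lhi PSGL1hi cells it was at -0.33 ± 0.12 (adjusted p = 0.0768, or 0.0497 with the replicate block). There 2 of 20 alternatives called it, with an adjusted p down to 0.0268. In CD62Lhi PSGL1hi relative to naive cells 4 of 20 alternatives did, with an adjusted p down to 0.0367. Pcna, the clamp itself, was 1.10, 0.684 and 1.03 in CD62Llo PSGL1lo cells, 0.974, 1.045 and 0.885 in CD62Llo PSGL1hi cells, 0.861, 1.16 and 1.18 in CD62Lhi PSGL1hi cells and 1.03, 0.925 and 0.777 in naive cells. All populations overlapped, and its differences were at most 0.22 in size with an SE of 0.17.

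For Okazaki fragments, Lig1, the ligase that seals them, was 1.38, 1.05 and 1.33 in CD62Llo PSGL1lo cells, 0.813, 0.864 and 0.948 in CD62Llo PSGL1hi cells, 1.23, 1.26 and 1.70 in CD62Lhi PSGL1hi cells and 0.705, 0.742 and 0.677 in naive cells. Only the CD62Llo PSGL1lo and CD62Lhi PSGL1hi arrays overlapped. Lig1 was 0.51 ± 0.13 higher in CD62Llo PSGL1lo than among CD62Llo PSGL1hi cells (adjusted p = 0.019), a call held in 15 of 20 alternatives. It was also 0.81 ± 0.13 higher in CD62Llo PSGL1lo and 0.97 ± 0.13 higher in CD62Lhi PSGL1hi than in naive cells. In CD62Llo PSGL1hi relative to CD62Lhi PSGL1hi cells it was at -0.66 ± 0.13 (adjusted p = 0.0126). The flap nuclease gene Fen1 was 0.971, 1.27 and 1.43 in CD62Lhi PSGL1hi cells, against 0.886, 0.918 and 0.812 in naive cells. It was 0.47 ± 0.13 higher in CD62Lhi PSGL1hi than in naive cells (adjusted p = 0.0165, or 0.0828 without CD62Lhi PSGL1hi replicate 3).

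Nucleotide supply changed most at Rrm2 and Tk1. Rrm2 (chr12:24708254-24714146), the S phase subunit of ribonucleotide reductase, was 0.640, 0.516 and 0.893 in CD62Llo PSGL1lo cells and 0.884, 0.826 and 1.10 in CD62Llo PSGL1hi cells. It was 1.85, 2.69 and 4.16 in CD62Lhi PSGL1hi cells and 1.03, 1.04 and 0.973 in naive cells. The CD62Lhi PSGL1hi arrays were the highest and spread the most. Rrm2 was 2.96-fold lower in CD62Llo PSGL1hi (-1.56 ± 0.23, adjusted p = 0.00117) and 4.13-fold lower in CD62Llo PSGL1lo cells (-2.04 ± 0.23, adjusted p = 9.44e-06) relative to CD62Lhi PSGL1hi cells. Between the CD62Llo populations it was at -0.48 ± 0.23 (adjusted p = 0.271, or 0.0497 with the replicate block). Its other 2 probe sets passed in both as well, at -1.63 and -1.62 for CD62Llo PSGL1hi and -2.51 and -2.52 for CD62Llo PSGL1lo cells. Rrm1, the partner subunit, rose relative to naive cells in all 3 CD44+ populations, by 0.56 ± 0.12 in CD62Llo PSGL1lo, 0.45 ± 0.12 in CD62Llo PSGL1hi and 0.88 ± 0.12 in CD62Lhi PSGL1hi cells.

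Tk1 (chr11:117815519-117826087), thymidine kinase, was 0.517, 0.448 and 0.930 in CD62Llo PSGL1lo cells, 1.12, 1.07 and 1.38 in CD62Llo PSGL1hi cells, 1.69, 1.89 and 3.18 in CD62Lhi PSGL1hi cells and 0.631, 0.586 and 0.561 in naive cells. The 3 CD44+ populations did not overlap, and CD62Llo PSGL1lo arrays lay on either side of the naive ones. Tk1 was 3.66-fold higher in CD62Lhi PSGL1hi than in naive cells (1.87 ± 0.24, adjusted p = 2.53e-05) and at 1.00 ± 0.24 in CD62Llo PSGL1hi cells. It was at -1.85 ± 0.24 in CD62Llo PSGL1lo relative to CD62Lhi PSGL1hi cells. Relative to CD62Llo PSGL1hi cells it was at -0.98 ± 0.24 (adjusted p = 0.0137). That call held in 16 of 20 alternatives, with an adjusted p up to 0.123. It ended, among others, without CD62Llo PSGL1lo replicate 2 (adjusted p = 0.0627), without its replicate 1 (0.0569) and without CD62Llo PSGL1hi replicate 3 (0.0688). Between CD62Llo PSGL1hi and CD62Lhi PSGL1hi cells Tk1 was at -0.88 ± 0.24 (adjusted p = 0.0896, or 0.0011 with the replicate block).

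Tyms, thymidylate synthase, and Dut, which hydrolyses dUTP, had no call on the probe sets that stand for them. The Tyms ratios were 1.07, 1.01 and 0.982 in CD62Llo PSGL1lo cells, 0.991, 1.01 and 0.918 in CD62Llo PSGL1hi cells, 1.09, 1.10 and 0.994 in CD62Lhi PSGL1hi cells and 0.972, 0.973 and 1.025 in naive cells. All populations overlapped. A further probe set of Tyms was 0.65 ± 0.12 higher in CD62Lhi PSGL1hi (adjusted p = 0.0012) and 0.58 ± 0.12 higher in CD62Llo PSGL1hi than in naive cells (adjusted p = 0.00301). The second Dut probe set was 0.66 ± 0.16 higher in CD62Lhi PSGL1hi than in naive cells (adjusted p = 0.00792). Both genes therefore depend on the probe set read.

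**Figure D4:**
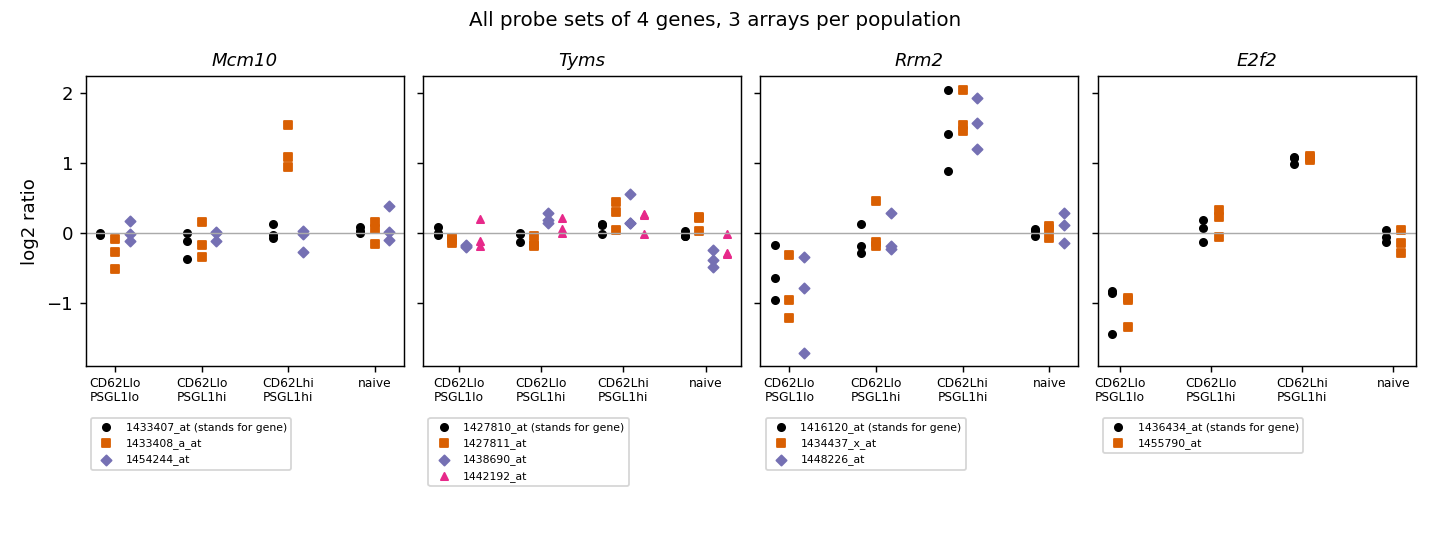
Log2 ratio on each of 3 arrays per population for every probe set of Mcm10, Tyms, Rrm2 and E2f2; black points are the probe set that stands for the gene. The 3 Rrm2 and 2 E2f2 probe sets run together, while those of Mcm10 and Tyms do not, and 1 of each departs most from the black points.

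Over the 41 genes, 50 further probe sets were measured. Of these, 45 had the sign of the gene's own probe set for CD62Llo PSGL1hi relative to CD62Lhi PSGL1hi cells, 44 for CD62Llo PSGL1lo relative to CD62Lhi PSGL1hi cells and 38 for CD62Llo PSGL1lo relative to CD62Llo PSGL1hi cells. Relative to naive cells 42, 38 and 40 did for CD62Llo PSGL1lo, CD62Llo PSGL1hi and CD62Lhi PSGL1hi cells. Over all 91 probe sets, those lower and higher in CD62Llo PSGL1hi relative to CD62Lhi PSGL1hi cells were 21 and 0, as against 0.839% and 0.395% of 45037 probe sets. In CD62Llo PSGL1lo cells they were 36 and 0 relative to CD62Lhi PSGL1hi cells (6.27% and 5.37%) and 12 and 1 relative to CD62Llo PSGL1hi cells (4.97% and 3.41%). Relative to naive cells, those higher and lower were 10 and 11 in CD62Llo PSGL1lo (9.53% and 10.6%), 12 and 9 in CD62Llo PSGL1hi (9.10% and 8.16%) and 41 and 2 in CD62Lhi PSGL1hi cells (8.60% and 8.66%). Between CD62Lhi PSGL1hi and naive cells, 1 further probe set each of Cdt1, Mcm5, Mcm6, Prim2, Orc1, Gins1, Slbp and Ccne1 overlapped. That of Cdt1 read 1.117, 0.935 and 0.934, against 0.995, 1.129 and 1.005 in naive cells. That of Mcm5 read 1.208, 0.964 and 1.127, against 1.014, 0.987 and 1.179 in naive cells. Further probe sets of Cdc45, Chaf1b and Rrm1 also read little difference. The second Cdc45 probe set was at -0.07 ± 0.09 for CD62Lhi PSGL1hi relative to naive cells. That of Chaf1b was at -0.13 ± 0.11 for CD62Llo PSGL1lo relative to CD62Lhi PSGL1hi cells, and 1 of 2 for Rrm1 was at -0.09 ± 0.11 for CD62Lhi PSGL1hi relative to naive cells.

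Chromatin genes were represented by Uhrf1, Chaf1b and Slbp. Uhrf1 (chr17:56303337-56323486) was 0.765, 0.674 and 0.999 in CD62Llo PSGL1lo cells, 1.00, 0.958 and 1.46 in CD62Llo PSGL1hi cells, 2.17, 2.15 and 3.37 in CD62Lhi PSGL1hi cells and 0.985, 0.946 and 1.06 in naive cells. CD62Lhi PSGL1hi cells stood above all other arrays. Uhrf1 was 2.24-fold lower in CD62Llo PSGL1hi cells (-1.16 ± 0.19, adjusted p = 0.00253) and 3.12-fold lower in CD62Llo PSGL1lo cells (-1.64 ± 0.19, adjusted p = 1.11e-05) relative to them. It was 1.33 ± 0.19 higher in CD62Lhi PSGL1hi than in naive cells. Between the CD62Llo populations it was at -0.48 ± 0.19 (adjusted p = 0.147, or 0.00392 with the replicate block).

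Chaf1b (chr16:93883900-93906115), a subunit of the histone chaperone CAF-1, was lowest in CD62Llo PSGL1lo cells. Its ratios were 0.488, 0.511 and 0.614 there, 0.865, 0.820 and 0.931 in CD62Llo PSGL1hi cells, 1.10, 1.21 and 1.30 in CD62Lhi PSGL1hi cells and 1.16, 1.202 and 1.07 in naive cells. The CD62Lhi PSGL1hi and naive arrays overlapped and no other pair of populations did. Chaf1b was at -1.17 ± 0.11 in CD62Llo PSGL1lo relative to CD62Lhi PSGL1hi cells (adjusted p = 1.09e-06), -0.70 ± 0.11 relative to CD62Llo PSGL1hi cells (adjusted p = 0.000319) and -1.09 ± 0.11 relative to naive cells. The call between CD62Llo PSGL1hi and CD62Lhi PSGL1hi cells (-0.46 ± 0.11, adjusted p = 0.037) held in 9 of 20 alternatives. Slbp, which binds histone mRNA, was higher in CD62Lhi PSGL1hi (0.69 ± 0.16, adjusted p = 0.0042) and in CD62Llo PSGL1hi (0.52 ± 0.16, adjusted p = 0.0261) than in naive cells, and the second call held in 14 of 20 alternatives. Its ratios were 1.07, 0.650 and 0.958 in CD62Llo PSGL1lo cells, 1.07, 1.10 and 1.00 in CD62Llo PSGL1hi cells, 1.00, 1.25 and 1.32 in CD62Lhi PSGL1hi cells and 0.808, 0.716 and 0.682 in naive cells.

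Of the regulators of S phase entry, E2f2 (chr4:136172274-136196057) separated the CD44+ populations most. Its ratios were 0.552, 0.371 and 0.564 in CD62Llo PSGL1lo cells and 1.14, 0.921 and 1.06 in CD62Llo PSGL1hi cells. They were 2.14, 1.99 and 2.11 in CD62Lhi PSGL1hi cells and 0.920, 0.967 and 1.03 in naive cells. CD62Llo PSGL1hi and naive arrays overlapped, while CD62Lhi PSGL1hi arrays were above and CD62Llo PSGL1lo arrays below all others. E2f2 was 4.27-fold lower in CD62Llo PSGL1lo than among CD62Lhi PSGL1hi cells (-2.09 ± 0.14, adjusted p = 2.68e-08). It was at -1.09 ± 0.14 in CD62Llo PSGL1lo relative to CD62Llo PSGL1hi cells, and fell by 1.00 ± 0.14 both in CD62Llo PSGL1hi relative to CD62Lhi PSGL1hi cells and in CD62Llo PSGL1lo relative to naive cells. In CD62Lhi PSGL1hi relative to naive cells it was at 1.10 ± 0.14 (adjusted p = 2.34e-05). The second E2f2 probe set passed in each of these comparisons in the same direction.

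Cyclin E2, encoded by Ccne2 (chr4:11190433-11204779), activates CDK2 at the G1 to S boundary. It was 1.05, 0.566 and 0.778 in CD62Llo PSGL1lo cells, 1.16, 0.924 and 0.928 in CD62Llo PSGL1hi cells, 2.54, 1.82 and 2.37 in CD62Lhi PSGL1hi cells and 1.199, 0.840 and 0.953 in naive cells. CD62Lhi PSGL1hi arrays were above all others, and the other populations overlapped. Ccne2 was at -1.15 ± 0.20 in CD62Llo PSGL1hi and -1.52 ± 0.20 in CD62Llo PSGL1lo relative to CD62Lhi PSGL1hi cells (adjusted p = 0.00347 and 3.44e-05), and at 1.17 ± 0.20 in CD62Lhi PSGL1hi relative to naive cells. Ccne1, for cyclin E1, differed by less. It was at -0.62 ± 0.14 in CD62Llo PSGL1hi and -0.57 ± 0.14 in CD62Llo PSGL1lo relative to CD62Lhi PSGL1hi cells (adjusted p = 0.0214 and 0.00738). The first of these calls held in 14 of 20 alternatives and ended with the probe set of largest SD, without moderated variances, without any 1 of the 3 CD62Llo PSGL1hi arrays and without CD62Lhi PSGL1hi replicate 3 (adjusted p up to 0.208). In CD62Lhi PSGL1hi relative to naive cells Ccne1 was at 0.43 ± 0.14 (adjusted p = 0.0328). That call held in 14 of 20 alternatives, with an adjusted p of 0.139 without CD62Lhi PSGL1hi replicate 3 and up to 0.371. E2f1 was 0.796, 0.623 and 1.02 in CD62Llo PSGL1lo cells, 0.827, 0.818 and 0.982 in CD62Llo PSGL1hi cells, 1.025, 0.922 and 1.58 in CD62Lhi PSGL1hi cells and 1.10, 1.06 and 1.11 in naive cells. It passed in no comparison. Its largest difference was in CD62Llo PSGL1lo relative to CD62Lhi PSGL1hi cells (-0.52 ± 0.19, adjusted p = 0.0774, or 0.00517 with the replicate block).

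Other genes of the pathway were read from lists of the same kind. The shares of all genes to set beside their counts are 1.40% lower and 0.704% higher in CD62Llo PSGL1hi, and 8.10% lower and 6.70% higher in CD62Llo PSGL1lo, relative to CD62Lhi PSGL1hi cells. In CD62Lhi PSGL1hi relative to naive cells they are 10.3% lower and 10.4% higher. Of 35 other fork and origin genes, 2 were lower and 0 higher in CD62Llo PSGL1hi, and 7 lower and 0 higher in CD62Llo PSGL1lo cells, relative to CD62Lhi PSGL1hi cells, with medians of -0.08 in both. Gmnn, the Cdt1 inhibitor geminin, was at -0.56 ± 0.14 and -1.06 ± 0.14, and Dbf4, the activator of the origin kinase Cdc7, at -1.13 ± 0.14 in CD62Llo PSGL1lo cells. The nuclease and helicase gene Dna2 was at -1.14 ± 0.15 there. In CD62Lhi PSGL1hi relative to naive cells 5 were higher and 3 lower, so in that comparison the list lay near the share of all genes in both directions. Lower were Cdc7 (-0.67 ± 0.09) and Timeless, a fork protection gene (-0.70 ± 0.10). In CD62Llo PSGL1lo relative to naive cells Timeless was at -1.63 ± 0.10, 3.10-fold lower (adjusted p = 2.84e-09).

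Of 19 other nucleotide and chromatin replication genes, 1 was lower and 0 higher in CD62Llo PSGL1hi relative to CD62Lhi PSGL1hi cells, the histone chaperone Asf1b (-0.92 ± 0.16, adjusted p = 0.005). In CD62Llo PSGL1lo cells 4 were lower and 1 higher, and the chromatin remodeller Hells was at -1.06 ± 0.14. Compared with naive cells, CD62Lhi PSGL1hi cells had 4 higher and 4 lower, where the shares of all genes are 10.4% and 10.3%. Hells was 1.26 ± 0.14 higher there, while the purine synthesis gene Gart and the folate enzyme gene Mthfd1 were lower, at -0.73 ± 0.09 and -0.68 ± 0.10.

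Of 17 replication-coupled repair genes, 6 were lower and 0 higher in CD62Llo PSGL1hi, and 8 lower and 0 higher in CD62Llo PSGL1lo, relative to CD62Lhi PSGL1hi cells. Of all genes, 1.40% and 8.10% were lower. Compared with naive cells, CD62Lhi PSGL1hi cells had 7 higher (10.4% of all genes) and 1 lower (10.3%). Brca1, which acts in repair of broken forks, was at -0.99 ± 0.13 in CD62Llo PSGL1hi and -1.25 ± 0.13 in CD62Llo PSGL1lo cells. The checkpoint kinase gene Chek1 was at -1.05 ± 0.15 in both. In CD62Lhi PSGL1hi relative to naive cells Brca1 was 1.18 ± 0.13 and Chek1 1.00 ± 0.15 higher.

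Of 35 G1/S regulators, 1 was higher and 6 lower in CD62Llo PSGL1hi, and 2 higher and 13 lower in CD62Llo PSGL1lo, relative to CD62Lhi PSGL1hi cells. The counts of higher genes stand beside 0.704% and 6.70% of all genes, those of lower genes beside 1.40% and 8.10%. Cyclin A2 RNA (Ccna2) was at -1.90 ± 0.22 and -2.30 ± 0.22. The repressive E2F genes E2f7 and E2f8 were at -1.71 ± 0.20 and -1.42 ± 0.17 in CD62Llo PSGL1hi cells, and at -2.38 ± 0.20 and -1.69 ± 0.17 in CD62Llo PSGL1lo cells.

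Mitosis genes separated the same populations with larger differences. Of 49, 39 were lower and 0 higher in CD62Llo PSGL1hi, and 43 lower and 0 higher in CD62Llo PSGL1lo, relative to CD62Lhi PSGL1hi cells. Of all genes, 1.40% and 8.10% were lower and 0.704% and 6.70% higher. The medians of the mitosis genes were -1.25 and -1.50, beside -0.39 and -0.44 for the 41 replication genes. In CD62Lhi PSGL1hi relative to naive cells 41 mitosis genes were higher (10.4% of all genes) and 0 lower (10.3%), with a median of 1.02 beside 0.47. On single arrays the median ratio of the mitosis genes was 0.706, 0.637 and 0.860 in CD62Llo PSGL1lo cells, 0.882, 0.880 and 0.992 in CD62Llo PSGL1hi cells, 1.57, 2.08 and 2.86 in CD62Lhi PSGL1hi cells and 1.06, 1.02 and 1.01 in naive cells. The median of the replication genes was 0.987, 0.774 and 0.994 in CD62Llo PSGL1lo cells, 0.992, 0.961 and 0.965 in CD62Llo PSGL1hi cells, 1.21, 1.25 and 1.36 in CD62Lhi PSGL1hi cells and 1.02, 0.941 and 0.944 in naive cells. On both, CD62Lhi PSGL1hi replicate 3 was the highest array. In CD62Llo PSGL1lo relative to naive cells 18 mitosis genes were lower (12.3% of all genes) and 0 higher (10.9%), with a median of -0.50, where the replication genes had 6 lower and 5 higher. The difference between both lists was not tested, and a wider range of a probe set's ratio can also come from its signal over background, which is unknown here.

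**Figure D5:**
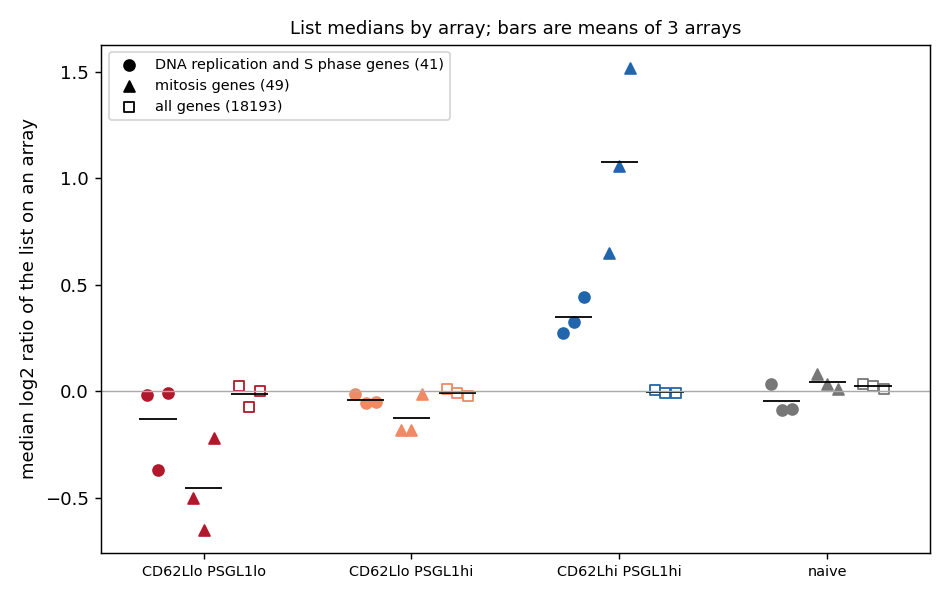
Median log2 ratio on each array for 41 replication genes (circles), 49 mitosis genes (triangles) and all 18193 genes (open squares), by population, with bars at the mean of 3 arrays. Both lists are highest on the CD62Lhi PSGL1hi arrays while the median of all genes stays near 0.

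Markers of other cells were read beside these results, with calls from the same limma fit. Relative to naive cells, 12.3% of all genes were lower and 10.9% higher in CD62Llo PSGL1lo cells. The shares were 10.1% and 10.7% in CD62Llo PSGL1hi cells and 10.3% and 10.4% in CD62Lhi PSGL1hi cells. They stand beside the counts of every marker list. The myeloid list set naive cells apart through a few genes. Its summed ratio was 9.42 to 13.7 in CD62Llo PSGL1lo, 11.3 to 14.3 in CD62Llo PSGL1hi, 12.3 to 14.5 in CD62Lhi PSGL1hi and 36.2 to 38.4 in naive cells. Its median ratio over the 12 genes differed far less, at 0.796 to 1.06, 0.915 to 1.07, 0.840 to 1.07 and, in naive cells, 1.18 to 1.21. Relative to naive cells 5 were lower in each CD44+ population, while 2, 2 and 1 were higher in CD62Llo PSGL1lo, CD62Llo PSGL1hi and CD62Lhi PSGL1hi cells. In CD62Lhi PSGL1hi cells the differences ran from -3.98 at S100a8, a neutrophil gene, to 3.71 at Cd68, a macrophage gene.

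The other lists moved in part as well. Of 8 plasma cell markers 4, 3 and 4 were higher than in naive cells in CD62Llo PSGL1lo, CD62Llo PSGL1hi and CD62Lhi PSGL1hi cells and 0 lower, with sums of 7.20 to 9.19, 8.17 to 9.59, 9.11 to 11.98 and, in naive cells, 5.42 to 5.91. Of 11 B cell markers 5, 3 and 1 were lower and 1, 2 and 2 higher than in naive cells in these populations, with sums of 9.44 to 11.2, 10.3 to 11.2, 10.6 to 12.4 and 11.9 to 12.1. B cell sums thus overlapped between CD62Lhi PSGL1hi and naive cells and lay below naive cells in both CD62Llo populations. Of 10 erythroid and megakaryocyte markers 2, 5 and 2 were lower and 0 higher than in naive cells, with sums of 8.96 to 9.57, 9.42 to 9.71, 9.78 to 10.9 and 13.6 to 14.2. Of 8 NK and CD8 T cell markers 3, 2 and 2 were lower and 0, 1 and 0 higher, with sums of 6.23 to 6.79, 8.52 to 12.3, 7.57 to 9.12 and 8.41 to 9.49. The CD62Llo PSGL1lo arrays held the lowest sums of NK and CD8 T cell markers. Of 7 thymocyte and progenitor markers 1, 3 and 1 were lower and 0 higher. Of 11 CD4 T cell markers 5, 7 and 2 were higher than in naive cells in CD62Llo PSGL1lo, CD62Llo PSGL1hi and CD62Lhi PSGL1hi cells, and 1, 0 and 0 lower.

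Among CD44+ populations, fewer markers were called, as were fewer of all genes. Of all genes, 1.40% were lower and 0.704% higher in CD62Llo PSGL1hi relative to CD62Lhi PSGL1hi cells. In CD62Llo PSGL1lo cells 8.10% were lower and 6.70% higher relative to CD62Lhi PSGL1hi cells. Relative to CD62Llo PSGL1hi cells 6.17% were lower and 4.55% higher. In CD62Llo PSGL1hi relative to CD62Lhi PSGL1hi cells 1 B cell, 1 myeloid and 1 plasma cell marker were lower and 1 NK and CD8 T cell marker higher. In CD62Llo PSGL1lo relative to CD62Lhi PSGL1hi cells 3 B cell, 1 plasma cell, 1 myeloid, 1 erythroid and megakaryocyte and 1 NK and CD8 T cell marker were lower, and 1 B cell and 1 plasma cell marker higher. Between the CD62Llo populations, PSGL1lo cells had lower RNA of 3 NK and CD8 T cell, 2 B cell, 1 myeloid and 1 erythroid and megakaryocyte marker and higher RNA of 0. The widest of these gaps was at Klrd1, an NK cell receptor gene, at -4.59 ± 0.29 between the CD62Llo populations (adjusted p = 2.23e-08). No thymocyte and progenitor marker was called among CD44+ populations. Of 11 CD4 T cell markers 2 were higher in CD62Llo PSGL1hi relative to CD62Lhi PSGL1hi cells, 2 higher and 1 lower in CD62Llo PSGL1lo relative to CD62Lhi PSGL1hi cells, and 1 each way between the CD62Llo populations. Ratios do not show whether a marker is absent, and the part of other cells in the results was not tested.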

How the data were processed

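RNA of 12 sorted samples was hybridised to Affymetrix mouse arrays, 3 per population. The deposited values are linear ratios: tested on the table, 99.7% of 45101 probe sets have a median within 0.002 of 1 over the 12 arrays. MAS5 is named per the submitters' processing notes. Brightness, signal over background and the handling of dim probe sets are unknown, and the number of arrays limits the precision. A test on log2 signals was planned, and log2 of the ratios was used, with no pseudocount or filter.

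Of the probe sets, 34945 have 1 gene symbol, 932 several and 9160 none listed, and 64 are controls. A gene was represented by 1 probe set with it as single symbol, preferring those whose ID has no _s_, _x_ or _a_ and whose target is a curated RefSeq transcript, lowest number first. limma 3.58.1 in R 4.3.3 (lmFit, eBayes, two-sided) was fitted over 18193 genes on all 12 arrays with 1 mean per population, and p-values were Benjamini-Hochberg adjusted. A second fit covered 45037 probe sets. The code was tested on simulated data.

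The genes and lists were chosen with earlier results of these data known. All 41 genes are accounted for. Array values are given for those of largest and smallest difference in each role and for those that went against their role, and up to 4 genes of each other list are named per comparison, except 1 that is not reported here. The 5 printed promoters are those with an E2F motif and the largest difference between CD62Llo PSGL1hi and CD62Lhi PSGL1hi cells.

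Deviations of same-numbered arrays correlated across genes by 0.342, 0.288 and 0.448 for CD62Llo PSGL1hi with CD62Lhi PSGL1hi cells, 0.368, 0.153 and 0.129 for CD62Llo PSGL1lo with CD62Llo PSGL1hi cells, and 0.27, 0.128 and 0.27 for CD62Llo PSGL1lo with CD62Lhi PSGL1hi cells. Since each exceeds 0.1, the cutoff used, the numbers were taken to pair these populations. The main calls and counts still come from the fit without the block. The blocked value stands beside each difference among these populations whose call it changes for any of the 41 genes. Naive arrays correlated by -0.125 to 0.2, not all above that cutoff, and were not taken as paired. Alternatives were another normalization, centring, probe set choice, variance model, the block, and leaving out each array.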

Additional observations from a re-analysis of the deposited data

How the results depend on the processing

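Each comparison was repeated under 20 alternatives. Of the genes called, 2 of 15 were called in all of them for CD62Llo PSGL1hi relative to CD62Lhi PSGL1hi cells (Cdc6 and E2f2), 4 of 9 for CD62Llo PSGL1lo relative to CD62Llo PSGL1hi cells, and 16 of 20 for CD62Llo PSGL1lo relative to CD62Lhi PSGL1hi cells. Relative to naive cells 7 of 11 were for CD62Llo PSGL1lo, 6 of 12 for CD62Llo PSGL1hi and 19 of 25 for CD62Lhi PSGL1hi cells. Without variance moderation, CD62Llo PSGL1hi relative to CD62Lhi PSGL1hi cells had 2 replication genes called and 101 of all genes, in place of 15 and 383, and CD62Llo PSGL1lo relative to CD62Llo PSGL1hi cells had 5 in place of 9. With the replicate block, those comparisons had 18 and 14 replication genes, the first had 590 of all genes, and CD62Llo PSGL1lo relative to naive cells had 19 in place of 11. The block gave 24 for CD62Llo PSGL1lo relative to CD62Lhi PSGL1hi cells. Quantile normalization gave 7 for CD62Llo PSGL1lo relative to naive cells. The cause of these shifts was not tested. Here and below, counts of all genes under an alternative are given only for CD62Llo PSGL1hi relative to CD62Lhi PSGL1hi cells. For the other comparisons, a shift of the replication genes cannot be told apart from a shift of all genes.

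Leaving out 1 array gave 10 to 18 replication genes and 249 to 463 of all genes for CD62Llo PSGL1hi relative to CD62Lhi PSGL1hi cells. It gave 6 to 8 replication genes for CD62Llo PSGL1lo relative to CD62Llo PSGL1hi cells and 17 to 23 relative to CD62Lhi PSGL1hi cells. Relative to naive cells it gave 8 to 14, 8 to 13 and 20 to 26 for CD62Llo PSGL1lo, CD62Llo PSGL1hi and CD62Lhi PSGL1hi cells. Signs turned with another probe set, as the probe sets themselves differ. With the probe set of largest SD, Tyms was at -0.39 in CD62Llo PSGL1lo relative to CD62Llo PSGL1hi cells and 0.58 in CD62Llo PSGL1hi relative to naive cells. Mcm10 was then at 1.17 in CD62Lhi PSGL1hi relative to naive cells, or 0.32 as the mean of its probe sets. Signal over background, which is unknown here, limits what flat probe sets can show.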

Other observations

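Among the G1/S regulators, inhibitors of cyclin-dependent kinases changed relative to naive cells in both directions. Cdkn2b, for an inhibitor of CDK4 and CDK6, was higher in CD62Llo PSGL1lo (2.44 ± 0.15), CD62Llo PSGL1hi (2.98 ± 0.15) and CD62Lhi PSGL1hi cells (2.03 ± 0.15). Cdkn2c, of the same family, was higher by 1.71 ± 0.10, 1.75 ± 0.10 and 2.29 ± 0.10 in these populations. Cdkn1a, for p21, was at 1.59 ± 0.17 in CD62Llo PSGL1hi and 1.75 ± 0.17 in CD62Lhi PSGL1hi cells. A further member of the CDK4 inhibitor family, Cdkn2d, was lower, at -1.58 ± 0.17, -1.53 ± 0.17 and -0.86 ± 0.17 in CD62Llo PSGL1lo, CD62Llo PSGL1hi and CD62Lhi PSGL1hi cells. Each of these passed in limma at an adjusted p of at most 0.00112, with 3 arrays per population.

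Cdkn2b was the 1 G1/S regulator that was higher in CD62Llo PSGL1hi relative to CD62Lhi PSGL1hi cells (0.94 ± 0.15, adjusted p = 0.00181). Between the CD62Llo populations, Rbl2, for a pocket protein that binds E2F factors, was lower in PSGL1lo cells (-0.99 ± 0.14, adjusted p = 0.000146), as was the cyclin D2 gene Ccnd2 (-0.83 ± 0.16, adjusted p = 0.00181). Cdkn1c, for p57, was higher there (0.66 ± 0.14, adjusted p = 0.00352). Myc was lower than in naive cells in all 3 CD44+ populations, at -1.63 ± 0.14, -1.28 ± 0.14 and -1.06 ± 0.14 in CD62Llo PSGL1lo, CD62Llo PSGL1hi and CD62Lhi PSGL1hi cells.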
